A study of Rattus norvegicus with 6 samples.

Results

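The best-covered long noncoding RNA (lncRNA) genes of the rat lung were compared between Tmprss2 knockout and wild-type animals. Of the 40995 genes in the deposited count table, 7888 were annotated as lncRNA, and 125 of these had a raw count of at least 200 in each of the 6 libraries. This minimum selected genes by their level in these same libraries, so their being well covered is no finding. The difference between genotypes was not itself used to choose them. A gene under the minimum in a single library, KO or WT, was left out, which can bear on the differences seen among the rest. Of the 125 genes, 116 carried an identifier as their name and 9 an established symbol. RefSeq gives another symbol for 3 of the identifiers. An identifier is described here by its position and its nearest protein-coding gene.

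A lncRNA is a transcript with no long open reading frame that is often spliced and polyadenylated like a messenger RNA. Some act in the nucleus on chromatin or splicing, some act in the cytoplasm on messenger RNAs or microRNAs (miRNAs), and others serve as hosts: small nucleolar RNAs (snoRNAs) or miRNAs are cut out of their introns or exons. Many lncRNA genes start close to developmental transcription factors and are transcribed away from them or across them on the other strand. In the lung, Fendrr beside Foxf1 is the best-known example of such a pair.

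The KO group consisted of lungs from 3 rats of the crTMPRSS2 line, in which the rat Tmprss2 gene was edited with CRISPR/Cas9 on a Sprague-Dawley background, and the WT group of lungs from 3 wild-type Sprague-Dawley rats. Neither group was treated, the labels give no age or sex, and all 6 libraries share one batch label. Poly-A RNA was sequenced, so RNA without a poly-A tail, mature snoRNAs and miRNAs included, was largely not measured. The target itself (chromosome 11, 36934306 to 36973779 of mRatBN7.2, minus strand) had 46.1, 56.4 and 47.0 CPM (counts per 1e6 counts) in KO replicates 1 to 3, against 50.5, 62.0 and 65.7 CPM in WT replicates 1 to 3. Tmprss2 did not pass the test (edgeR adjusted p = 0.508 with all 6 libraries and 0.0589 without WT replicate 1). An edited gene can still be transcribed, so its total count does not check the edit, and the genotypes rest on the labels.

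Total counts ran from 29933359 to 36895162 per library. The 125 lncRNA genes took 0.607% to 0.624% of them in the KO libraries, 0.363% in WT replicate 1, and 0.576% and 0.636% in WT replicates 2 and 3. One library, WT replicate 1, differed widely from the rest. Summed over the 8 tested genes of a striated muscle marker list of 10, the level was 43.9 to 125 CPM in KO, 9909 CPM in WT replicate 1, and 44.4 and 61.2 CPM in WT replicates 2 and 3. Of that list, Myh4 alone was at 0 in every KO library. A squamous epithelium list with 5 tested genes stood at 5.77 to 14.2 CPM in KO, 3323 CPM in WT replicate 1, and 11.7 and 13.2 CPM in the other WT libraries. Its members Krt6a, Sprr1a and Dsg3 had a count of 0 in at least 1 library. For this reason the differences between KO and WT were fitted both with all 6 libraries and without WT replicate 1. Where only 1 fit is given for a gene, it is the fit named beside its value. The fits share 5 libraries, so they are not independent of each other.

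Most of the lncRNA genes were lowest in WT replicate 1. It held the lowest of the 6 values for 78 of the 125 genes (62.4%), against 32.3% of the 10869 protein-coding genes with at least 200 counts in every library. Each of the other 5 libraries was lowest for 5 to 14 lncRNA genes. The median of the log2 ratio of WT replicate 1 to the median of the other 5 libraries was -0.38 over the lncRNA genes and 0.10 over those protein-coding genes. WT replicate 1 was highest for 21 lncRNA genes. Among the 62 genes with an annotated exon length above the median of 4595 bases, 47 were lowest in WT replicate 1, and among the 63 others 31 were. These marker and length values move with the library, and their part in its lncRNA levels was not tested.

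**Figure D1:**
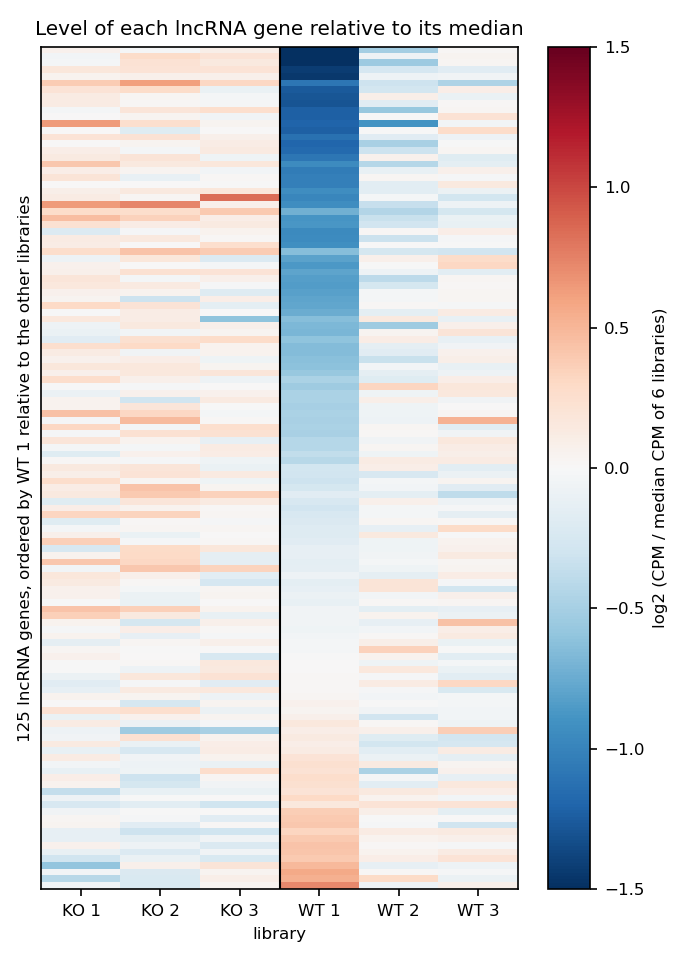
Level of each of the 125 lncRNA genes (1 per line, no gene names) in the 3 KO and 3 WT libraries (columns), as log2 of the CPM over the gene's median CPM in the 6 libraries, with colours limited to -1.5 and 1.5. WT replicate 1 is the column that departs most, below the others for 78 genes and above them for 21.

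The genes farthest below the other libraries in WT replicate 1 were LOC103691276, LOC102556284, LOC120095271, LOC120101725 and Gas5. LOC103691276 (chromosome 1, 202350668 to 202358569, minus strand) overlaps Brms1, a subunit of histone deacetylase complexes, on the opposite strand by 4361 bp. It had 34.4, 32.5 and 35.1 CPM in KO, against 7.65, 23.2 and 33.6 CPM in WT, and its log2 ratio for WT replicate 1 was -2.13. LOC102556284, whose nearest protein-coding gene Kctd12 lies 336471 bp away, had 78.3, 97.9 and 93.0 CPM in KO, against 22.7, 76.6 and 83.3 CPM in WT. LOC120095271, 2758 bp from Zfp207, had 23.1, 27.5 and 26.1 CPM in KO, against 6.97, 16.3 and 24.3 CPM in WT. In all 3 of these genes, WT replicate 3 lay within the range of the KO libraries and WT replicate 1 lay far below every other library.

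The genes farthest above were Ndufb1, LOC120094258, Mtln, LOC100910628 and LOC120099015. Ndufb1 had the largest ratio, 0.76 on the log2 scale. LOC120094258, which overlaps Tusc2 on the opposite strand by 3219 bp, had 19.1, 21.8 and 27.0 CPM in KO, against 36.9, 31.2 and 24.0 CPM in WT. LOC100910628, near Ly86, had 6.77, 10.8 and 11.7 CPM in KO, against 14.4, 9.38 and 9.68 CPM in WT. The groups overlapped for both of these genes.

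With all 6 libraries, no lncRNA gene passed the edgeR quasi-likelihood test at a Benjamini-Hochberg adjusted p of 0.05, and 10 of all 18464 tested genes did (0.0542%), as did 0.0276% of the 10869 protein-coding genes with at least 200 counts in every library. At an unadjusted p under 0.05 there were 24 of the 125, 17 higher and 7 lower in KO, where 11.3% of all tested genes were. The median log2 fold change of KO over WT was 0.16 over the 125 genes, with 94 above 0 and 31 below. It was 0.29 over all 1979 tested lncRNA genes (71.5% above 0), -0.00 over all tested genes and -0.05 over the protein-coding genes with at least 200 counts. The KO values lay wholly above the WT values for 26 of the 125 lncRNA genes and wholly below them for 9. Over all tested genes each of these patterns took 11.4%. DESeq2 called 5 of the 125, all higher in KO (2.14% of the genes it gave an adjusted p), limma-voom called 0 (0.0379%), and limma-voom with sample quality weights called 17 higher and 3 lower (9.08%).

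Without WT replicate 1, 7 of the 125 genes passed the test, 5 higher and 2 lower in KO. That is 5.60%, beside 3.99% of all 18994 tested genes (1.65% higher and 2.34% lower) and 5.03% of the protein-coding genes with at least 200 counts, so the share of called lncRNA genes lay near that of other genes. Over all 2196 tested lncRNA genes, most of them at lower counts, it was 1.68%. At an unadjusted p under 0.05 there were 36 of the 125 (24 higher and 12 lower), beside 17.8% of all tested genes. The median log2 fold change was 0.08 over the 125 genes, with 78 above 0 and 47 below. It was 0.16 over all tested lncRNA genes (63.0% above 0), 0.00 over all tested genes and -0.02 over the protein-coding genes. The count of called genes was 6, 3 and 8 when KO replicate 1, 2 or 3 was left out as well. No share over all genes is given for these fits. In whole lung, fewer cells of a type and less RNA per cell cannot be told apart.

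**Figure D2:**
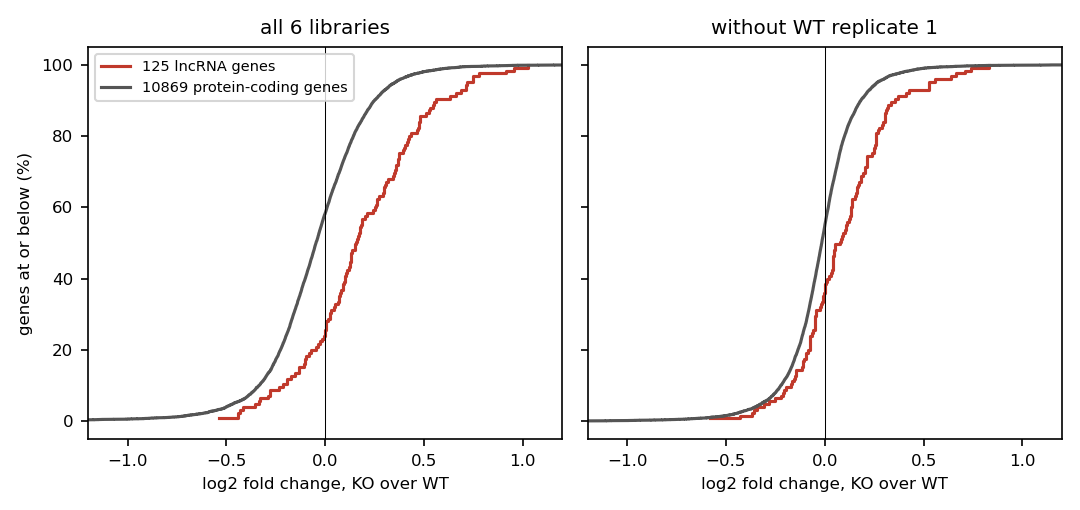
Cumulative share (in percent) of genes at or below each log2 fold change of KO over WT, for the 125 lncRNA genes and for the 10869 protein-coding genes with at least 200 counts in every library, with all 6 libraries (left) and without WT replicate 1 (right). The lncRNA curve lies to the right in both panels, with medians of 0.16 and 0.08. Medians over all tested lncRNA genes, not drawn, were 0.29 and 0.16.

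The smallest p without WT replicate 1 was that of LOC100912041, a snoRNA host (chromosome 1, 205619202 to 205622491 of mRatBN7.2, plus strand). Genes for 7 box C/D snoRNAs, SNORD22 and SNORD26 to SNORD31, lie inside it on its strand. Many box C/D snoRNAs guide methylation of ribosomal RNA. It had 47.1, 55.45 and 45.2 CPM in KO replicates 1 to 3, against 17.1, 29.2 and 26.3 CPM in WT replicates 1 to 3. Every KO library lay above every WT library, with WT replicate 1 lowest. The log2 fold change was 0.83 (SE 0.10, edgeR adjusted p = 0.00220) without WT replicate 1, and 1.02 (SE 0.20, adjusted p = 0.192) with all 6 libraries. The call without WT replicate 1 was kept when any further library was left out, with adjusted p from 0.00247 to 0.0194. Of the 125 genes, only this one is listed in the authors' deposited table, which gives a log2 fold change of 1.02, an adjusted p of 0.000617, and group values of 1577 in KO and 778 in WT.

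LOC100912041 starts 271 bp from Slc3a2, the heavy chain of amino acid transporters, and the genes run in opposite directions from there. Slc3a2 had 230.4, 213 and 235 CPM in KO, against 352, 260.0 and 238 CPM in WT, and did not pass the test (log2 fold change -0.14, SE 0.07, edgeR adjusted p = 0.316 without WT replicate 1; -0.32, SE 0.16, adjusted p = 0.478 with all 6). The promoter of the gene that differed most is shown with that of Gas5, the host with most snoRNAs. They span 250 bases before to 50 after the start, from RefSeq on GRCr8 (chr1:215048085-215048384 and chr13:75836713-75837012, both plus strand). Capitals mark the GC box GGGCGG, the CCAAT box CCAAT and the TATA box TATAAA, each searched on both strands, and no matches overlap.
LOC100912041 promoter: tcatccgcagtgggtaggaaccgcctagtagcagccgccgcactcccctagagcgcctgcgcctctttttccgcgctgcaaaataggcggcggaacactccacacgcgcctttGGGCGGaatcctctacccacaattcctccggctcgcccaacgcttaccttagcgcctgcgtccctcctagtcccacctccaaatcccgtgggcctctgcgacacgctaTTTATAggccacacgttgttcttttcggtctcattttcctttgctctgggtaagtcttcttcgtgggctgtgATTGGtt
Gas5 promoter: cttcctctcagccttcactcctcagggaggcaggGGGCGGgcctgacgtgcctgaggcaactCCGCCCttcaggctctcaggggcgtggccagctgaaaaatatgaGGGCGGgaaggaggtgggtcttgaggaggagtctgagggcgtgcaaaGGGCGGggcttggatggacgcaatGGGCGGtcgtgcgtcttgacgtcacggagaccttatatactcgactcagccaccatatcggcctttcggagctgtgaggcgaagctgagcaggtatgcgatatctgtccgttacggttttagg
The LOC100912041 window holds 1 match to each motif, and the Gas5 window holds 5 GC boxes. In the LOC100912041 window the TATA match at -29 and the CCAAT match at 43, after the start, both read on the opposite strand. Among the 80 of the 125 genes with a promoter in the RefSeq table, 31.2% held a GC box, 42.5% a CCAAT box and 16.2% a TATA box, beside 34.9%, 37.7% and 14.3% of all 27457 promoters. These shares lie near those of all promoters, and a match is no evidence of binding.

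Among the other 4 genes higher in KO, LOC102550524 (chromosome 13, 22064418 to 22111976, minus strand) had 19.7, 19.7 and 21.4 CPM in KO, against 9.89, 12.0 and 13.5 CPM in WT. All KO values lay above all WT values (log2 fold change 0.67, SE 0.11, edgeR adjusted p = 0.0112 without WT replicate 1 and 0.191 with all 6 libraries). The deposited annotation matches this transcript to the ORF2 protein of the LINE-1 retrotransposon, so reads may be shared with repeat copies elsewhere, and how such reads were counted is not given in the sources used here. Its neighbour Zcchc2, 6701 bp away, had 61.2, 65.1 and 63.9 CPM in KO, against 56.8, 60.5 and 58.7 CPM in WT (adjusted p = 0.538 without WT replicate 1).

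LOC102546657 (chromosome 17, 68954810 to 68996252, minus strand) had 18.8, 21.0 and 20.3 CPM in KO, against 10.1, 13.0 and 12.8 CPM in WT. The groups did not overlap, and the log2 fold change was 0.64 (SE 0.11, edgeR adjusted p = 0.0114) without WT replicate 1 and 0.75 (SE 0.15, adjusted p = 0.192) with all 6. Its nearest protein-coding gene, 288810 bp away, is Gata3, a transcription factor of T cells and innate lymphoid cells. Gata3 had 22.3, 21.9 and 24.3 CPM in KO, against 22.3, 13.9 and 13.7 CPM in WT, and was higher in KO without WT replicate 1 (log2 fold change 0.72, SE 0.10, adjusted p = 0.00499), but not with it (0.46, SE 0.21, adjusted p = 0.455).

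The edgeR test called lymphocyte markers without WT replicate 1, where 3.99% of all genes passed, and none with all 6 libraries. All 8 genes of a natural killer cell list had a log2 fold change above 0 in both fits. Of these 8 genes, 5 passed edgeR without WT replicate 1 and 0 with all 6 libraries, where 4 had an unadjusted p under 0.05. DESeq2 called 7 without WT replicate 1 and 1 with all 6, and limma-voom with quality weights called 5 in each fit. Their summed level was 184 to 187 CPM in KO, 18.5 CPM in WT replicate 1, and 99.9 and 101 CPM in WT replicates 2 and 3. In a list of 5 B cell genes, 4 passed edgeR without WT replicate 1 and 0 with all 6 libraries, where all 5 had an unadjusted p under 0.05. DESeq2 called 5 without WT replicate 1 and 2 with all 6, and quality weights called 3 and 5. Their summed level was 94.3 to 116 CPM in KO, 33.2 CPM in WT replicate 1, and 56.5 and 70.8 CPM in the other WT libraries. Over all genes, DESeq2 called 6.46% without WT replicate 1 and 2.14% with all 6, and quality weights 3.38% and 9.08%. None of these markers was at 0 in any library, and the part of lymphocytes in the lncRNA differences was not tested.

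LOC120101725 (chromosome 3, 135364107 to 135467677, minus strand) lies 2446 bp from Foxa2, a forkhead transcription factor of lung and gut epithelium, on the same strand. It had 44.2, 45.1 and 45.2 CPM in KO, against 14.5, 32.8 and 34.7 CPM in WT. The KO libraries were close together and above every WT library (log2 fold change 0.41, SE 0.07, edgeR adjusted p = 0.0116 without WT replicate 1; 0.71, SE 0.30, adjusted p = 0.432 with all 6). Foxa2 itself had 52.8, 54.4 and 49.5 CPM in KO, against 56.4, 44.2 and 53.4 CPM in WT, with overlapping groups (log2 fold change 0.10, SE 0.09, adjusted p = 0.635 without WT replicate 1). LOC102550180 (chromosome 15, 27915136 to 27916745, plus strand) had 31.0, 36.8 and 35.5 CPM in KO, against 25.0, 25.3 and 21.4 CPM in WT. Here WT replicate 1 lay among the WT libraries, and the log2 fold change was 0.56 (SE 0.11, adjusted p = 0.0182) without it and 0.53 (SE 0.12, adjusted p = 0.246) with it. Its neighbour Lrp10, a lipoprotein receptor family member 4360 bp away on the same strand, had 165, 166 and 169 CPM in KO, against 257, 179 and 165 CPM in WT (adjusted p = 0.753 without WT replicate 1).

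The 2 genes lower in KO were LOC120101664 and LOC120099015. LOC120101664 (chromosome 3, 118520461 to 118525337, minus strand) lies 12 bp from the ubiquitin ligase gene Rnf24 on the same strand. It had 31.2, 33.0 and 29.9 CPM in KO, against 41.0, 42.3 and 42.3 CPM in WT, so that the 3 WT libraries lay close together and the groups did not overlap. The log2 fold change was -0.43 (SE 0.07, edgeR adjusted p = 0.0129) without WT replicate 1 and -0.42 (SE 0.09, adjusted p = 0.224) with all 6. Rnf24 as annotated was low, with 1.59, 1.29 and 1.43 CPM in KO, against 2.30, 1.90 and 1.55 CPM in WT (adjusted p = 0.749 without WT replicate 1). LOC120099015 (chromosome 20, 19224913 to 19227113, plus strand) overlaps the start of Ank3, which encodes the membrane scaffold ankyrin G, by 919 bp on the opposite strand. It had 36.0, 41.5 and 38.0 CPM in KO, against 58.2, 47.5 and 51.2 CPM in WT (log2 fold change -0.36, SE 0.08, adjusted p = 0.0355 without WT replicate 1; -0.44, SE 0.11, adjusted p = 0.259 with all 6). Ank3 had 136, 125 and 113 CPM in KO, against 139, 123 and 127 CPM in WT, with overlapping groups. Whether counting used the strand is not given in the sources used here, so reads of overlapping genes on opposite strands cannot be told apart, here and for every antisense pair named later.

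**Figure D3:**
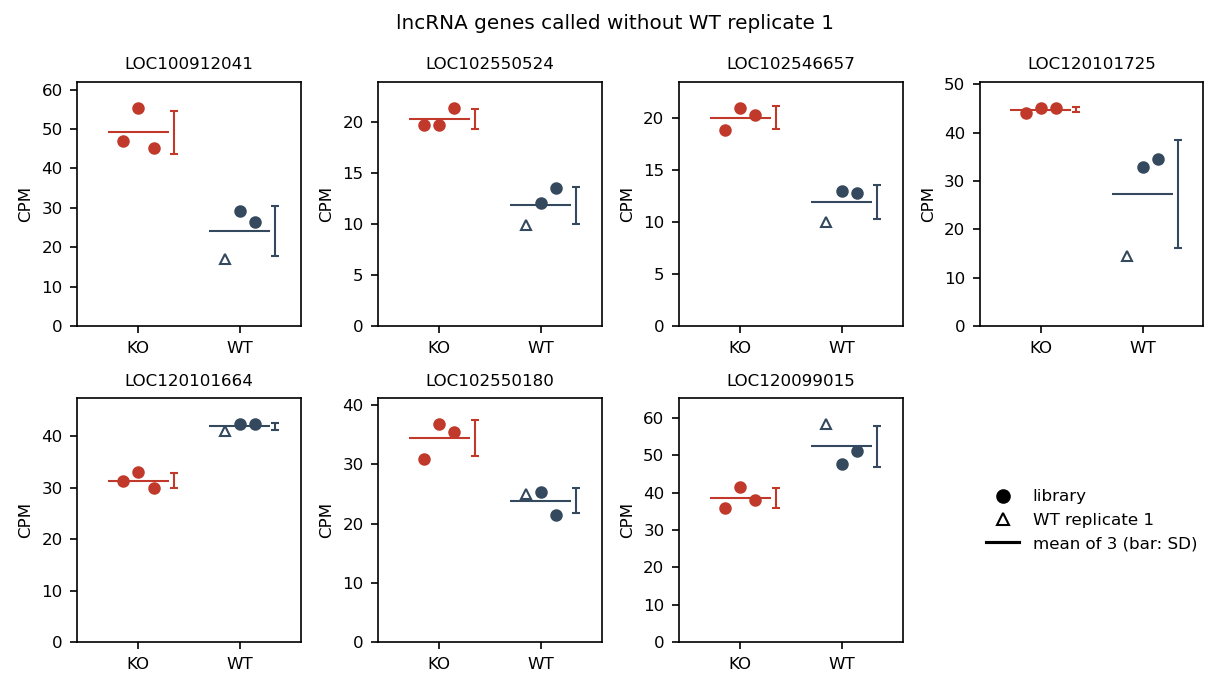
CPM of the 7 lncRNA genes that passed the test without WT replicate 1, in KO (left, red) and WT (right, dark) libraries, with the mean of 3 libraries as a line and its SD as a bar at the side. Open triangles mark WT replicate 1, and in all 7 genes the KO and WT libraries do not overlap.

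How far these calls depend on single libraries differed between the genes. Leaving out 1 more library at a time, which for WT leaves a single library assumed to vary like the KO libraries, kept the call of LOC102550524 except without WT replicate 2 (adjusted p = 0.0751). The call of LOC102546657 was lost without KO replicate 2 (0.0590), WT replicate 2 (0.0602) or WT replicate 3 (0.0531), and that of LOC120101725 without KO replicate 2 (0.0565) or WT replicate 2 (0.0701). LOC102550180 lost its call without KO replicate 2 (0.0893) or WT replicate 3 (0.102), and LOC120101664 without WT replicate 2 (0.0639) or WT replicate 3 (0.0516). For LOC120099015 the adjusted p was 0.0584 to 0.160 whichever of the 5 libraries was left out. Gata3 kept its call in all 5 of these fits, with adjusted p from 0.0156 to 0.0285.

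Of the 125 genes, 12 hold 33 genes for snoRNAs or the related small Cajal body RNAs on their own strand. In 10 of the 12 the log2 fold change lay above 0, with all 6 libraries (median 0.17) and without WT replicate 1 (median 0.13). Of all 125 genes, 75.2% and 62.4% lay above 0 in these fits. The edgeR test called 0 of the 12 with all 6 libraries and 1 without WT replicate 1, LOC100912041. Gas5 (chromosome 13, 73303611 to 73306932, plus strand), a growth arrest transcript with 9 snoRNA genes, had 36.0, 36.5 and 36.6 CPM in KO, against 12.7, 32.7 and 33.3 CPM in WT. The KO libraries lay above all WT libraries, but WT replicates 2 and 3 were close to them and WT replicate 1 was far below. Gas5 did not pass the test (log2 fold change 0.47, SE 0.33, edgeR adjusted p = 0.585 with all 6; 0.14, SE 0.07, adjusted p = 0.353 without WT replicate 1).

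LOC100911177, which holds 3 genes of the SNORD12 and SNORD106 family and starts 518 bp from Znfx1, had 29.2, 28.4 and 27.6 CPM in KO, against 22.3, 26.8 and 27.1 CPM in WT (log2 fold change 0.08, SE 0.08, adjusted p = 0.692 without WT replicate 1). LOC120102992, with 4 snoRNA genes (3 of box H/ACA families and SNORD99), went the other way, at 12.4, 14.6 and 14.7 CPM in KO, against 18.2, 17.5 and 16.9 CPM in WT, without overlap and without passing the test (adjusted p = 0.215 without WT replicate 1). Hosts with more than 2 snoRNA genes thus included values on both sides of 0. The remaining 8 hosts stood between 6.30 and 27.4 CPM.

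Genes whose products act with these hosts gave few calls. Transcripts of 13 proteins of box C/D particles, which bind the snoRNAs after they leave the host, had a median log2 fold change of -0.02 with all 6 libraries and -0.07 without WT replicate 1. The edgeR test called 0 of them in either fit, as did DESeq2, and 1 had an unadjusted p under 0.05 in each. Spliced host transcripts are often of the terminal oligopyrimidine (5'TOP) class, like those of the translation machinery. In a list of translation genes of that class, 25 of 26 were tested, and their median was -0.08 with all 6 libraries and 0.05 without WT replicate 1. Of these, 1 passed the test without WT replicate 1, Eef1a1, the elongation factor that delivers transfer RNA, at 3708, 3679 and 3496 CPM in KO, against 4948, 4446 and 4075 CPM in WT (log2 fold change -0.23, SE 0.05, edgeR adjusted p = 0.0437). That call was kept only when WT replicate 3 was left out as well, and without any other library the adjusted p was 0.0920 to 0.156. Of 17 factors of nonsense-mediated decay, which degrades many host transcripts, edgeR and DESeq2 called 0 in either fit, with 0 and 2 at an unadjusted p under 0.05, and the medians were -0.02 and -0.00.

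Another 6 genes hold 11 miRNA genes on their strand, and all 6 were lowest in WT replicate 1. Their median log2 ratio for that library was -0.91. The mature miRNAs were not measured here. One arm of each main hosted miRNA is shown from RefSeq (GRCr8), 5′ to 3′, with the seed (bases 2 to 8, which pair with target messenger RNAs) in capitals, to show which regulators these host transcripts carry.
rno-miR-143-3p: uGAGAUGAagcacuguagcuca
rno-miR-145-5p: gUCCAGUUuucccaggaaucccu
rno-miR-22-3p: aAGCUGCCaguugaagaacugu
rno-miR-146a-5p: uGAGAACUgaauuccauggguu
rno-miR-34a-5p: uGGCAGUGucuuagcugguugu
rno-miR-29a-3p: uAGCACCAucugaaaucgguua
rno-miR-29b-3p: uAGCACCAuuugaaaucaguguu
rno-miR-322-5p: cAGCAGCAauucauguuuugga
rno-miR-503-5p: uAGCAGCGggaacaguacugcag
rno-miR-351-5p: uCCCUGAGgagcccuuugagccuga
The miR-29a and miR-29b arms share the seed AGCACCA, and the seeds of miR-322 and miR-503 both begin with AGCAGC.

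Carmn, listed as LOC120098113 (chromosome 18, 55097848 to 55118810, minus strand), hosts miR-143 and miR-145, which are typical of smooth muscle. It had 41.9, 48.5 and 51.2 CPM in KO, against 18.3, 29.0 and 44.0 CPM in WT. The WT libraries were spread widely, WT replicate 3 lay within the KO range, and the test was not passed (log2 fold change 0.63, SE 0.29, edgeR adjusted p = 0.457 with all 6; 0.37, SE 0.15, adjusted p = 0.227 without WT replicate 1). LOC120102485, the host of miR-29a and miR-29b-1, which target collagen messenger RNAs, had 16.4, 15.4 and 27.0 CPM in KO, against 7.65, 14.8 and 12.5 CPM in WT. One KO library was far above the other two. LOC102550366, on chromosome X with miR-322, miR-503 and miR-351, had 22.5, 22.7 and 18.4 CPM in KO, against 15.2, 17.6 and 16.4 CPM in WT, without overlap (adjusted p = 0.193 without WT replicate 1 and 0.401 with all 6).

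The hosts of miR-34a, a p53 target, miR-22 and miR-146a, a brake on inflammatory signalling, showed no separation of the groups once WT replicate 1 was set aside. LOC103692514 with miR-34a had 27.0, 26.6 and 22.5 CPM in KO, against 14.6, 25.2 and 26.3 CPM in WT. LOC120095139 with miR-22 had 25.4, 25.4 and 28.3 CPM in KO, against 19.3, 26.5 and 28.2 CPM in WT. LOC120095074 with miR-146a had 24.6, 27.8 and 29.3 CPM in KO, against 14.6, 28.6 and 30.2 CPM in WT. The deposited annotation matches this last transcript to a LINE-1 protein as well. None of the 6 miRNA hosts passed the edgeR test in either fit, with 2 and 3 at an unadjusted p under 0.05. DESeq2 called 0 in both, and limma-voom with quality weights 1 with all 6 libraries. The median log2 fold change was 0.29 with all 6 libraries and 0.15 without WT replicate 1.

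**Figure D4:**
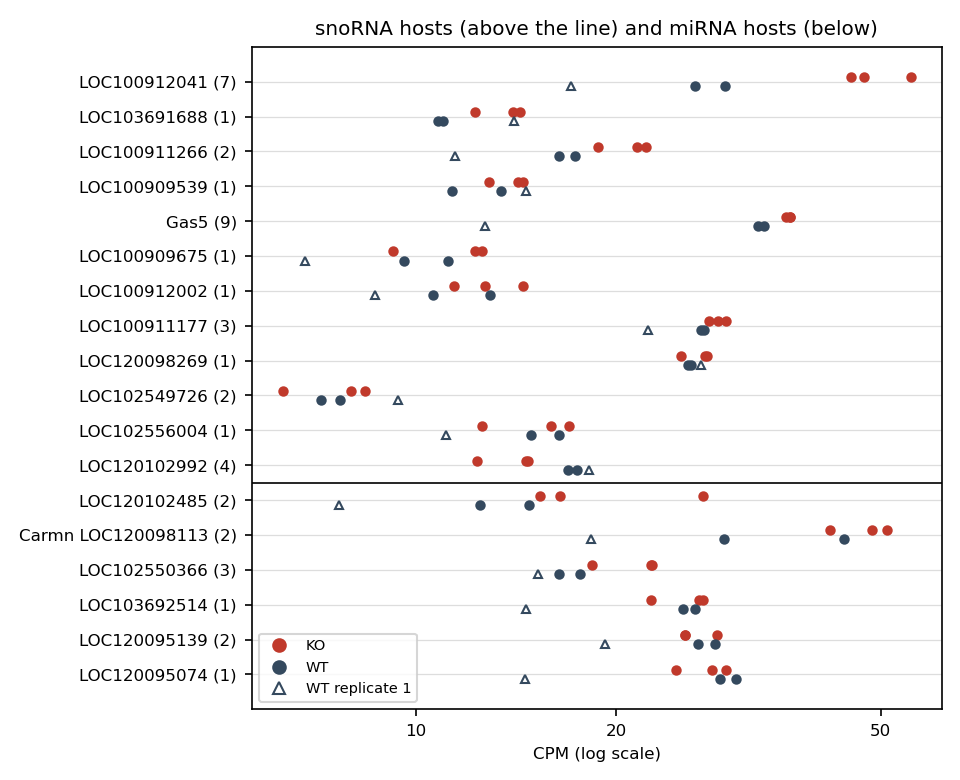
CPM (log axis) of the 12 hosts of snoRNA or small Cajal body RNA genes (above the line) and the 6 hosts of miRNA genes (below it) in KO (red) and WT (dark) libraries, with the number of hosted genes in parentheses. Open triangles mark WT replicate 1, which is the lowest of the 6 in every miRNA host, and LOC100912041 shows the widest gap between KO and the remaining WT libraries.

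Among the lncRNAs with known functions, Fendrr was one of the most abundant per length, with a median of 134 FPKM over the 6 libraries. Fendrr (chromosome 19, 49127225 to 49152779, minus strand) is needed for heart and body wall development in the mouse and starts 950 bp from Foxf1, a transcription factor of the lung mesenchyme and its capillaries, in the opposite direction. It had 188, 185 and 197 CPM in KO, against 269, 213 and 216 CPM in WT. All KO libraries lay below all WT libraries, without passing the test (log2 fold change -0.17, SE 0.06, edgeR adjusted p = 0.135 without WT replicate 1; -0.29, SE 0.12, adjusted p = 0.427 with all 6). Foxf1 had 220.5, 239 and 265 CPM in KO, against 537, 351 and 289 CPM in WT, and passed it without WT replicate 1 (log2 fold change -0.41, SE 0.09, adjusted p = 0.0407), but not with all 6 (-0.70, SE 0.22, adjusted p = 0.344). The Foxf1 call was lost when KO replicate 1 (0.118), KO replicate 2 (0.153) or WT replicate 2 (0.242) was left out too, and under upper quartile scaling (0.0517).

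Oip5-as1, also called Cyrano, binds miR-7 and leads to its decay. It had 167, 171 and 159 CPM in KO, against 70.7, 165 and 193 CPM in WT. Tug1, a nuclear and cytoplasmic transcript needed for retina and sperm in the mouse, had 37.5, 36.1 and 35.3 CPM in KO, against 19.7, 35.9 and 44.5 CPM in WT. In both, WT replicate 3 was the highest library and WT replicate 1 the lowest, and the sign of the log2 fold change turned with that library: 0.21 (SE 0.33) and -0.11 (SE 0.07) for Oip5-as1, and 0.12 (SE 0.27) and -0.15 (SE 0.09) for Tug1, with all 6 and without WT replicate 1. Neither passed the test (edgeR adjusted p = 0.492 and 0.468 without WT replicate 1). Tincr, which in human skin promotes keratinocyte differentiation, had 16.6, 17.1 and 17.9 CPM in KO, against 7.28, 11.9 and 16.5 CPM in WT (log2 fold change 0.28, SE 0.14, adjusted p = 0.360 without WT replicate 1). It was thus low in WT replicate 1, the library with the high squamous marker level.

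Some genes annotated as lncRNA are known or matched in the deposited annotation as sources of proteins or short peptides, and their annotation as noncoding can be of a transcript or locus model only. Mtln encodes the mitochondrial peptide mitoregulin, which takes part in fatty acid oxidation. It had 14.8, 13.2 and 15.8 CPM in KO, against 22.6, 15.5 and 15.1 CPM in WT. Ndufb1 encodes a subunit of respiratory complex I and had 7.45, 6.53 and 7.84 CPM in KO, against 12.6, 7.27 and 8.04 CPM in WT. Both were highest in WT replicate 1, and their log2 fold changes without it were close to 0 (-0.07, SE 0.12, and -0.07, SE 0.16).

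Smim30l1, listed as LOC100363521 and named after a small membrane protein, had 35.0, 31.1 and 33.4 CPM in KO, against 32.9, 34.4 and 37.2 CPM in WT (log2 fold change -0.11, SE 0.08, edgeR adjusted p = 0.569 without WT replicate 1). Tmem80, a transmembrane protein gene whose start overlaps Deaf1 on the opposite strand by 167 bp, had 30.1, 29.2 and 24.5 CPM in KO, against 28.7, 30.1 and 25.9 CPM in WT. Rhno1, which starts 124 bp from Foxm1 and acts in the ATR response to replication stress, had 8.29, 8.04 and 8.16 CPM in KO, against 7.96, 10.3 and 8.04 CPM in WT. The gene listed as LOC680254 (2810025M15Rikl in RefSeq), 838 bp from Rasal2, had 13.3, 12.1 and 11.0 CPM in KO, against 17.2, 13.0 and 12.6 CPM in WT. The groups overlapped for all 6 genes, Mtln and Ndufb1 included. Of the 12 genes with an established symbol, these 6 and the lncRNAs with known functions included, 0 passed the edgeR test in either fit, 1 with all 6 libraries and 2 without WT replicate 1 had an unadjusted p under 0.05, and DESeq2 called 0. With all 6 libraries, limma-voom with quality weights called 1, Carmn (adjusted p = 0.0228), beside 9.08% of all genes.

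Per length, the 125 genes spanned a median of 0.235 to 189 FPKM, with 5.17 FPKM in the middle. The highest were LOC100910973 (189 FPKM), LOC120097382 (174), Fendrr (134), Gas5 (80.3) and LOC100911177 (61.5). LOC100910973 (chromosome 1, 207705447 to 207708355, minus strand), 22310 bp from Ms4a8, a gene of the membrane-spanning 4A family, had 207, 183 and 195 CPM in KO, against 218, 178 and 172 CPM in WT. The groups overlapped, and the log2 fold change was 0.16 (SE 0.07, edgeR adjusted p = 0.234) without WT replicate 1. LOC120097382 (chromosome 1, 203129229 to 203140014, plus strand), 3202 bp from Frmd8, had 1604, 1406 and 1596 CPM in KO, against 684, 1590 and 1928 CPM in WT. Apart from WT replicate 1, its KO and WT libraries overlapped (log2 fold change -0.19, SE 0.08, adjusted p = 0.257 without WT replicate 1; 0.13, SE 0.34, adjusted p = 0.863 with all 6).

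Transcripts for proteins of the nuclear bodies in which several abundant lncRNAs reside followed the same library. Of 20 nuclear speckle proteins, which take part in splicing, 17 were lowest in WT replicate 1, and the median log2 ratio for that library was -0.75. Their summed level was 4824 to 4941 CPM in KO, 3163 CPM in WT replicate 1, and 4408 and 4843 CPM in WT replicates 2 and 3. Of 20 paraspeckle proteins, 15 were lowest there. Of the speckle list, edgeR called 0 in either fit, with 0 and 5 at an unadjusted p under 0.05, DESeq2 called 0 and 1, and quality weights 1 and 0, with medians of 0.21 with all 6 libraries and 0.07 without WT replicate 1. For the paraspeckle list the medians were 0.16 and 0.03, and 1 gene was called without WT replicate 1: Cirbp, a cold-inducible RNA-binding protein, at 148, 135 and 124 CPM in KO, against 87.6, 99.4 and 99.1 CPM in WT (log2 fold change 0.45, SE 0.08, edgeR adjusted p = 0.0113). Its call was lost without KO replicate 2 (0.0566), WT replicate 2 (0.0627) or WT replicate 3 (0.0542).

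The nearest protein-coding gene overlapped the lncRNA gene on the opposite strand in 50 of the 125 cases. In 23 the genes diverged from starts within 5 kb of each other, in 9 the neighbour lay within 5 kb on the same strand, in 2 it overlapped on the same strand, and 41 had another arrangement. Some of these neighbours are regulators of lung or blood cell development. This set was picked after the values were seen and is given without a test. It held 11 lncRNA genes beside 10 regulators, and 8 of the 11 were lowest in WT replicate 1. Their log2 fold changes ran from -0.17 to 0.64 without WT replicate 1, with LOC102546657 by Gata3 at the top and Fendrr by Foxf1 at the bottom.

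Both lncRNA genes beside Nkx2-1, the master transcription factor of lung epithelium, were measured. LOC100911923, 2264 bp away on the same strand, had 181, 198 and 174 CPM in KO, against 124, 168 and 176 CPM in WT. LOC102552092, which overlaps Nkx2-1 by 1506 bp on the opposite strand, had 21.0, 19.7 and 15.4 CPM in KO, against 9.92, 17.2 and 16.9 CPM in WT. Nkx2-1 had 297, 320.4 and 294 CPM in KO, against 286, 268 and 318 CPM in WT, so neither the gene nor its lncRNA neighbours separated the groups.

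LOC102546975 overlaps Shh, the epithelial signal to lung mesenchyme, by 3632 bp on the opposite strand. It had 66.2, 69.9 and 53.9 CPM in KO, against 24.1, 47.7 and 61.6 CPM in WT, while Shh was even, at 10.8, 11.6 and 11.2 CPM in KO, against 10.7, 10.9 and 12.8 CPM in WT. LOC102553329, across Nr2f2, a nuclear receptor of veins and lymphatics, had 31.1, 29.9 and 28.2 CPM in KO, against 14.0, 26.8 and 30.6 CPM in WT. LOC120102333, across the haematopoietic factor Gata2, had 196, 176 and 193 CPM in KO, against 176, 182 and 197 CPM in WT, and was among the few of this set that WT replicate 1 did not set apart.

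LOC100911221, which starts 255 bp from the immediate early gene Jun, had 55.9, 58.3 and 61.5 CPM in KO, against 37.2, 61.6 and 68.4 CPM in WT. Jun itself had 262, 262 and 278 CPM in KO, against 615, 395 and 299 CPM in WT, so that in WT replicate 1 the lncRNA gene was lowest and Jun highest. LOC100910558, 3089 bp from Nfib, a factor of lung maturation, had 13.4, 16.2 and 14.4 CPM in KO, against 15.2, 12.3 and 11.4 CPM in WT. LOC102555465, 106615 bp from Tcf21, a mesenchymal factor, had 21.0, 19.1 and 17.0 CPM in KO, against 13.7, 17.9 and 20.6 CPM in WT. For these 3 lncRNA genes the KO and WT libraries overlapped. For Jun and Tcf21 they did not: every KO library lay below every WT library, with 156, 150.4 and 164 CPM of Tcf21 in KO, against 187, 204 and 177 CPM in WT. Over all tested genes 11.4% showed this pattern. For Jun the nearest KO and WT values were 278 and 299 CPM.

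Over the 119 lncRNA genes whose neighbour was tested, 66 had a log2 fold change of the same sign as the neighbour without WT replicate 1. Across these pairs Pearson's r was 0.19 and Spearman's rho 0.25, values that describe pairs measured in the same libraries. Among the neighbours in these 119 pairs, 9 passed the edgeR test without WT replicate 1, Gata3 and LOC102551518 higher in KO and 7 lower. In that fit 3.99% of all tested genes passed, as did 5.03% of the protein-coding genes with at least 200 counts in every library. With all 6 libraries none of the 9 passed the edgeR test, at adjusted p from 0.180 for Rhob to 0.455 for Gata3. Sgk1, a kinase that regulates sodium channels, had 84.8, 81.6 and 76.3 CPM in KO, against 158, 117 and 114 CPM in WT (log2 fold change -0.51, SE 0.07, edgeR adjusted p = 0.00315 without WT replicate 1). Its lncRNA neighbour LOC120098893 lay on the other side of 0 at 0.74 (adjusted p = 0.126 in the same fit). Rhob, an immediate early small GTPase gene, had 256, 247 and 251 CPM in KO, against 495, 439 and 341 CPM in WT (-0.63, SE 0.09, adjusted p = 0.00499 without WT replicate 1). N4bp3 had 23.7, 25.7 and 28.1 CPM in KO, against 55.6, 42.2 and 38.2 CPM in WT (-0.64, SE 0.09, adjusted p = 0.00565 without WT replicate 1). For Sgk1, Rhob and N4bp3 every KO library lay below every WT library. Their calls without WT replicate 1 were kept when any KO library was left out. With all 6 libraries edgeR did not call them (adjusted p = 0.213, 0.180 and 0.190). DESeq2 did call them with all 6 (adjusted p = 0.00818, 0.000935 and 0.00272), as did limma-voom with quality weights (0.000915, 0.000432 and 0.00101). Over all genes these methods called 2.14% and 9.08% there.

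Pde4b, Slco4c1, LOC108348108 and Foxf1 were also lower in KO without WT replicate 1, and each of these calls and that of LOC102551518 was lost in at least 3 of the 5 fits that left out 1 more library, at adjusted p values of up to 0.0940 for Pde4b, 0.212 for Slco4c1 and LOC108348108, 0.242 for Foxf1 and 0.169 for LOC102551518. With all 6 libraries, quality weights also called Gata3, Pde4b, Foxf1, Slco4c1 and LOC102551518, and DESeq2 called LOC108348108. With the exception of LOC102546657 by Gata3, the lncRNA partner of a neighbour called by edgeR did not pass the edgeR test.

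**Figure D5:**
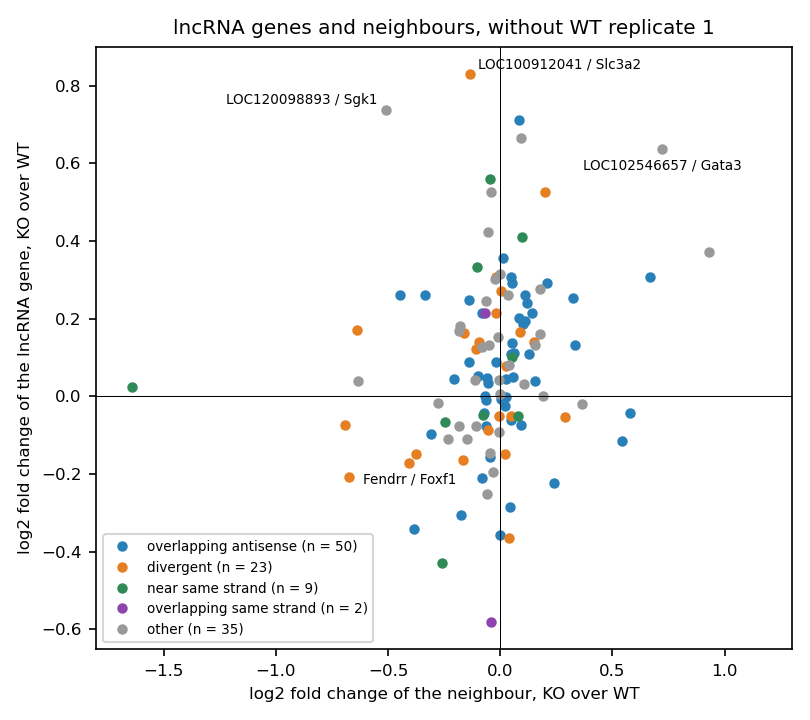
Log2 fold change of KO over WT without WT replicate 1 for each lncRNA gene (vertical axis) against that of its nearest protein-coding gene (horizontal axis), coloured by arrangement, for 119 pairs. LOC102546657 and Gata3 are both higher in KO, LOC100912041 and Slc3a2 lie on opposite sides of 0, and the points show only a weak trend (Pearson's r 0.19).

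Imprinted genes, a class in which lncRNAs such as H19 and Meg3 are known regulators, showed single changes. Of 21 such genes of the Dlk1-Dio3 region, the H19 locus and other imprinted loci, 18 were tested, with medians of -0.27 with all 6 libraries and -0.08 without WT replicate 1. Without WT replicate 1, Dlk1, a fetal growth regulator, was higher, at 30.6, 27.2 and 21.6 CPM in KO, against 18.7, 15.0 and 16.1 CPM in WT (log2 fold change 0.77, SE 0.14, edgeR adjusted p = 0.0160). Igf2r, the receptor that clears IGF2, was lower, at 222, 224 and 221 CPM in KO, against 320.3, 255 and 268 CPM in WT (-0.23, SE 0.05, adjusted p = 0.0402). The Dlk1 call was lost without KO replicate 2 (0.0810), WT replicate 2 (0.101) or WT replicate 3 (0.0614), and the Igf2r call whichever library was left out (0.0754 to 0.143). With all 6 libraries edgeR called no gene of the paraspeckle, 5'TOP or imprinted lists, where 2, 1 and 5 genes had an unadjusted p under 0.05 and DESeq2 called 1, 0 and 2.

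At the edge of the count minimum, LOC120098833 had a lowest count of 200 (KO replicate 1), LOC102549726 of 200 (KO replicate 2) and LOC100909675 of 201 (WT replicate 1). Just outside it, Thumpd3-as1 reached 199, LOC103693092 198 and LOC102547042 197, each in WT replicate 1, with 302 to 684 counts in the other libraries. Of all lncRNA genes, 142 reached 200 counts in WT replicate 1 and 207 to 256 in each other library. Another 52 lncRNA genes met the minimum in the other 5 libraries and not in WT replicate 1, so that the 125 genes are fewer than the 177 that these 5 libraries alone would give.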

How the data were processed

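Lung poly-A RNA of 3 KO and 3 WT rats was sequenced as paired reads on an Illumina platform, per the labels. The submitters' processing notes name CASAVA, HISAT2 2.2.1, StringTie 2.2.3, featureCounts 2.0.6, DESeq2 1.42.0 and the build mRatBN7.2, with no settings. The authors deposited raw counts per gene with gene positions, biotypes and lengths, and FPKM values that were used here for levels between genes. Their deposited table of KO against WT gives log2 fold changes, p-values and a normalized signal per group and was used only to say what it lists. Low counts were more often even than odd (3171 genes against 1641 in WT replicate 1), as when both mates are counted, so independent fragments are fewer than counts.

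Counts were tested with edgeR 4.0.16 in R 4.3.3 (TMM, filterByExpr with a minimum count of 10, glmQLFit and glmQLFTest, genotype as the one term) over all genes that passed the filter: 18464 with all 6 libraries and 18994 without WT replicate 1. The p-values were adjusted over all of them (Benjamini-Hochberg, threshold 0.05), and all 125 lncRNA genes passed the filter. The SE is the log2 fold change over the square root of F, and CPM uses TMM library sizes. The test was also run on simulated counts in which no library departed like WT replicate 1. That run cannot show how the test behaves with such a library. Alternatives were DESeq2, limma 3.58.1 (voom, quality weights, log2 of FPKM + 1), other scalings, no filter, a replicate block, other count minimums, and each library left out. RefSeq (GRCr8) matched 96 of the 125 genes and was used for names and sequences.

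Named genes were the called ones, all with established symbols, the 5 highest by median FPKM, the 3 nearest the minimum on each side, the 5 farthest each way in WT replicate 1, and neighbours. The genes, lists and rules were chosen with earlier results of these data known.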

Additional observations from a re-analysis of the deposited data

How the results depend on the processing

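Without WT replicate 1, the 7 called lncRNA genes became 13 with DESeq2, 22 with no filter on low counts and 1 with limma on log2 of FPKM + 1. Over all genes, 6.46%, 6.27% and 0.948% were called in these fits. The called lncRNA genes were 11 of 254 with a count minimum of 100 and 4 of 49 with one of 500, where the median log2 fold change was 0.040. Leaving out 1 more library gave 2 to 9 calls. With all 6 libraries, the 0 calls became 5 with DESeq2, 20 with quality weights and 0 to 7 when 1 library was left out. Over all genes, DESeq2 called 2.14% and quality weights 9.08%. The 7 calls came without WT replicate 1, where 3.99% of all genes were called. The cause of these shifts was not tested. A 1 kb window left 3 neighbours near on the same strand. With total-count scaling WT replicate 1 was above the other libraries for 11 of the 125 genes and below them for 96 (76.8%). Of the protein-coding genes with at least 200 counts in every library, 48.1% were below under that scaling.

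The median stayed above 0 in both fits under every alternative run. Signs turned for genes that were called in neither comparison. With all 6 libraries, quality weights gave -0.011 for Oip5-as1, -0.037 for Tug1, -0.0999 for LOC120097382 and 0.0078 for Ank3, and upper quartile scaling gave 0.032 for Tmem80. Without WT replicate 1, Tmem80 was at 0.0017 with voom, 0.016 with quality weights and 0.024 with upper quartile scaling, and Ank3 at 0.00040 with quality weights and 0.023 with upper quartile scaling.

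Leaving out 1 library with all 6 in the fit gave log2 fold changes of -0.11 to 0.49 for Oip5-as1, -0.15 to 0.38 for Tug1, -0.076 to 0.070 for Tmem80, -0.16 to 0.029 for Rhno1, -0.023 to 0.16 for LOC100910973, -0.19 to 0.43 for LOC120097382, -0.12 to 0.0094 for Ank3 and -0.072 to 0.098 for Foxa2. From the fit without WT replicate 1, the ranges were -0.22 to 0.0060 for Oip5-as1, -0.29 to 0.012 for Tug1, -0.11 to 0.11 for Tmem80, -0.12 to 0.0047 for Mtln, -0.34 to 0.023 for Rhno1, -0.14 to 0.0014 for Ndufb1, -0.065 to 0.067 for Ank3, -0.030 to 0.24 for Foxa2 and -0.11 to 0.0099 for Lrp10.

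The labels number replicates 1 to 3 in both groups, with nothing that pairs them, and deviations of same-numbered libraries correlated at -0.08, 0.03 and -0.08. With the replicate number as a block, 0 lncRNA genes were called with all 6 libraries and 7 without WT replicate 1, where LOC120099015 had an adjusted p of 0.137. Over all genes, 0.0108% and 3.05% were called in these 2 fits. Genes below the count minimum, where depth limits the precision most, are not described.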
